A study of Mus musculus with 6 samples.

Results

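Mitochondrial ribosomal proteins were taken as the protein-coding genes whose symbols start with Mrpl or Mrps followed by a digit, 78 of the 56748 genes in the deposited table. Of these, 49 carried the large subunit prefix Mrpl and 29 the small subunit prefix Mrps. The rule used only names and gene type, no measured value. Ribosome footprints (ribosome profiling, which sequences the mRNA fragments that ribosomes protect from nuclease) had been sequenced from mouse Lin-c-Kit+ cells, immature blood cells labelled as hematopoietic stem cells. The samples were 3 libraries from WT mice and 3 from Mov10 knockout mice, all taken 12 days after 4.5 Gy of irradiation. Neither the knockout allele nor the age of the animals is given in the sources used here, and nothing says whether replicates came from separate animals, so p-values may measure only technical spread. The comparison asks how the footprints on these genes differed between irradiated knockout and irradiated WT cells. No unirradiated group was analysed here.

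Mitochondria keep their own ribosome, which translates the few mRNAs of the mitochondrial genome into core subunits of the respiratory chain. Its ribosomal RNAs come from mitochondrial DNA, while all of its proteins are encoded in the nucleus, translated in the cytosol and imported. Footprints on Mrpl and Mrps genes are therefore made by cytosolic ribosomes, and footprints on mitochondrial mRNAs by the mitochondrial ribosome itself. Blood progenitors are known to depend on mitochondrial translation when they leave quiescence and differentiate. A footprint level mixes the amount of an mRNA with its rate of translation, and mRNA amounts were not measured in the data used here. In bulk libraries, fewer cells of a type and less RNA per cell cannot be told apart.

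Depth went with genotype, from 2266986 to 2508139 recovered reads in WT libraries but only 1120242 to 1355207 in the knockout. Values are normalized reads, in which 1 read counts 0.614 to 0.681 in WT but 1.34 to 1.62 in the knockout. Mov10, the gene named as knocked out, had 110.4, 106 and 104 normalized reads in WT against 51.0, 89.0 and 46.3 in the knockout. It was lower in every knockout library but not past the test (limma, adjusted p = 0.0598). Mov10 passed with TMM or library-total scaling. With a library left out it passed in 1 of 6 fits, the one without knockout replicate 2, its highest knockout library (adjusted p = 0.00692). Its adjusted p was up to 0.205 in the others. Reads stayed on Mov10 in every knockout library, and which of its exons were deleted is not given in the sources used here. The summed level of 8 progenitor markers, Kit and Mpo among them, was 14884 to 17744 in WT against 32458 to 33498 in the knockout. Most of that sum was Mpo, with a mean of 12660 in WT against 29006 in the knockout. Of the 8 genes 2, Mpo and Myb, were higher, 4 had values above and 4 below 0, and their median log2 fold change was -0.09. For 8 mature neutrophil markers it was 10581 to 11714 in WT against 9182 to 9912 in the knockout, with 4 higher and 3 lower. For 6 B cell markers it was 963 to 993 in WT against 1761 to 1839 in the knockout (4 higher), and for 7 erythroid markers 429 to 493 in WT against 1367 to 1472 in the knockout (2 higher, 1 lower). The erythroid genes went both ways, with 4 log2 fold changes above and 3 below 0, from -4.10 to 3.36. Their highest gene mean was 314 in WT and 904 in the knockout, but their median gene mean was 23.0 against 25.2. For 6 T cell markers the summed level was 63.8 to 86.3 in WT against 66.6 to 92.5 in the knockout and for 6 macrophage markers 549.9 to 639 in WT against 715 to 769.9 in the knockout. In the T cell list limma called 0 genes, with 0 at an unadjusted p under 0.05 and 0 by edgeR or DESeq2, and in the macrophage list 0, with 2 higher and 1 lower unadjusted, 1 higher by edgeR and 0 by DESeq2. No listed marker was at 0 in every library. The part of these cell types in the results below was not tested.

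All 78 members had reads and all passed the filter, a mean of at least 1 normalized read over the 6 libraries. They were read modestly. The median member had 33.4 normalized reads in WT against 33.2 in the knockout, from a median of 54 and 22 reads per library. Across all genes, limma called 21.2% of 17114 tested genes at a Benjamini-Hochberg adjusted p under 0.05, 10.3% higher and 10.9% lower in the knockout. Of the members, 13 of 78 (16.7%) were called, 7 higher and 6 lower, a share near that background. In the large subunit 4 of 49 members were higher and 4 lower. In the small subunit 3 of 29 were higher and 2 lower. The 3 knockout libraries all lay on the same side of the 3 WT libraries in 30 members (38.5%, 14 above and 16 below), against 39.8% of all tested genes, 16.9% above and 22.9% below. The mitochondrial ribosomal proteins thus did not move one way between the genotypes, and calls in both directions stood side by side in each subunit.

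The median log2 fold change, knockout over WT, was -0.41 over the large subunit members and -0.11 over the small subunit members, beside -0.17 over all tested genes. Single members ran from -4.02 (Mrpl37) to 1.61 (Mrpl35) in the large subunit and from -2.64 (Mrps5) to 0.87 (Mrps18a) in the small subunit. Of all members 32 had a positive and 46 a negative value, and 27 lay within 0.5 of 0. The level of these medians depended on scaling and on other choices. Upper-quartile scaling moved the median of all genes by 0.18 and library totals moved it by -0.21. It also moved by 0.39 with DESeq2, 0.12 with edgeR and -0.13 with a pseudocount of 0.1. Relative to all genes, the large subunit median stayed between -0.24 and -0.23 and the small subunit median between 0.05 and 0.06 under TMM, upper-quartile and library-total scaling. Other choices moved these relative medians further, to -0.02 and 0.17 with edgeR, -0.32 and 0.01 with DESeq2 and -0.12 and 0.16 with a pseudocount of 0.1. With a library left out they ran from -0.31 to -0.12 and from -0.11 to 0.19, the extremes coming without WT replicate 3 and knockout replicate 1 for the large subunit and without knockout replicates 3 and 1 for the small. Among the members with a mean of at least 50 normalized reads, 16 large and 12 small, the medians were positive, at 0.37 and 0.28, beside 0.01 over all genes that well read.

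**Figure D1:**
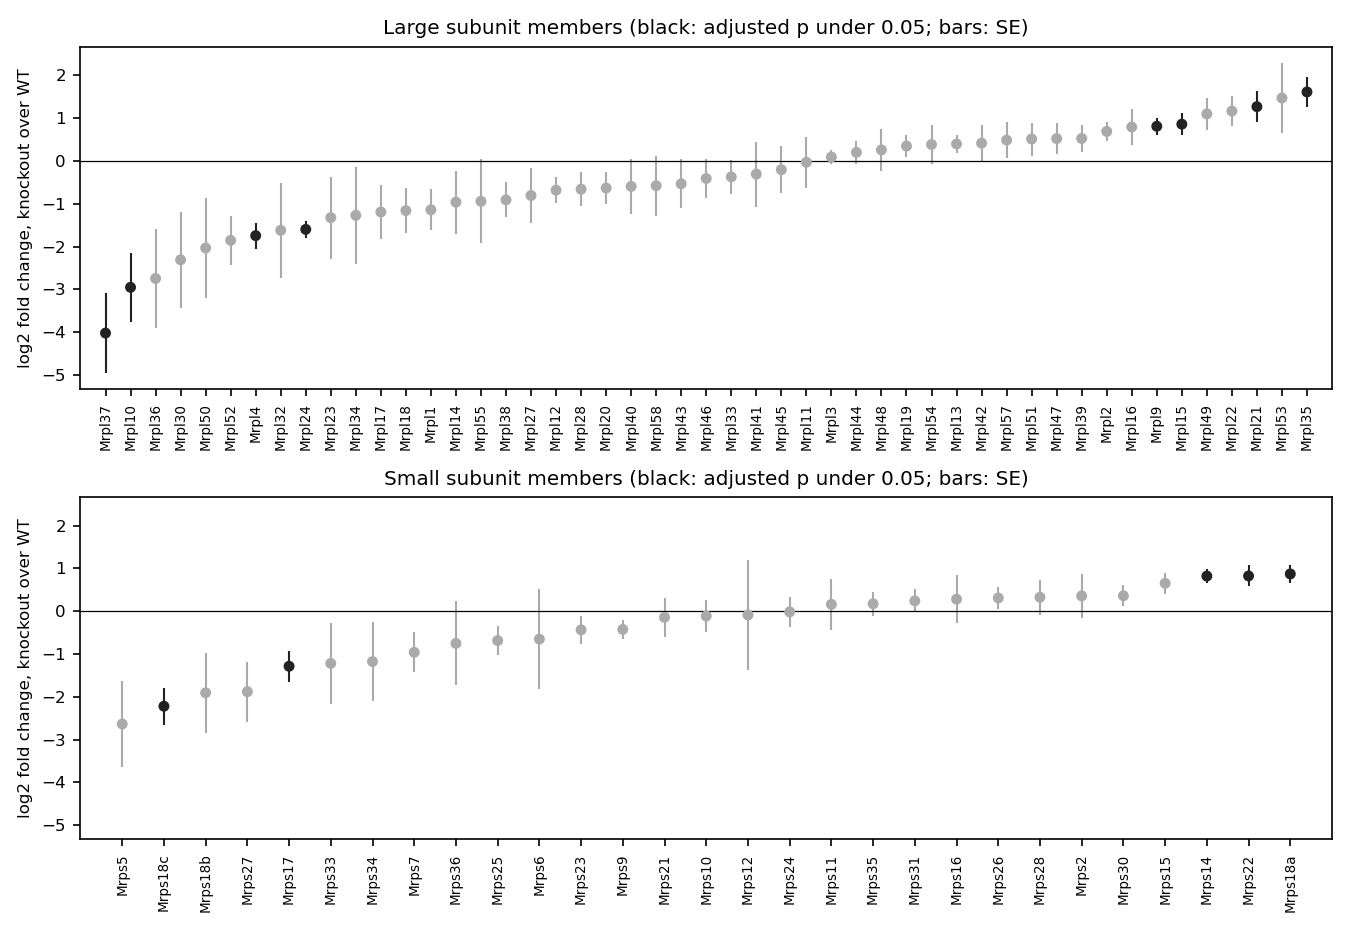
Log2 fold change, knockout over WT, of each large (top) and small (bottom) subunit member, ordered by value, with SE bars and called members in black. The 13 called members, 7 above 0 and 6 below it, lie toward the ends of the order, from Mrpl37 at -4.02 to Mrpl35 at 1.61.

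Among the large subunit members lower in the knockout, Mrpl24 was the most firmly separated. Mrpl24, which lies near the exit of the polypeptide tunnel, had 223, 229 and 219 normalized reads in WT but 65.7, 61.5 and 96.9 in the knockout (chromosome 3, 87826813 to 87830979, GRCm39). The WT libraries were almost equal and far above any knockout library. Mrpl24 was 2.99-fold lower in the knockout (log2 fold change -1.60, SE 0.20, adjusted p = 0.00114) and was the only member still called whichever library was left out, with an adjusted p of up to 0.0172. It overlaps Rrnad1 on the opposite strand by 1072 bases, and Rrnad1 had 82.5, 62.0 and 59.3 in WT against 57.7, 35.6 and 68.0 in the knockout. Whether counting used the strand is not given, so a share of these reads may belong to either gene.

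Mrpl4, a protein with a bacterial counterpart that lines the tunnel, had 85.7, 87.8 and 88.6 normalized reads in WT against 17.4, 30.7 and 30.4 in the knockout (chromosome 9, 20914034 to 20920135). All knockout libraries were below all WT libraries, by 3.34-fold between the means (log2 fold change -1.74, SE 0.30, adjusted p = 0.00544). Its call was lost without WT replicate 3 (adjusted p = 0.0509). Mrpl37, a protein found only in mitochondrial ribosomes, had the log2 fold change farthest from 0 among the members, from 81.2, 82.2 and 66.1 in WT to 0, 4.85 and 17.4 in the knockout (chromosome 4, 106913071 to 106924065). Those knockout values are 0, 3 and 12 reads, so the size of the difference (10.3-fold between the means, log2 fold change -4.02, SE 0.93, adjusted p = 0.0183) is poorly fixed. With a pseudocount of 0.1 in place of 1 its adjusted p was 0.0792. Mrpl10, which holds the flexible stalk of the large subunit, was read 24.0, 22.7 and 20.4 in WT against 2.68, 6.47 and 0 in the knockout (chromosome 11, 96932386 to 96940039), again with a knockout library at 0 and no overlap between the groups (7.34-fold lower, log2 fold change -2.95, SE 0.81, adjusted p = 0.0344). With the smaller pseudocount it too missed the threshold (adjusted p = 0.108).

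The large subunit members called higher were Mrpl35, Mrpl9, Mrpl21 and Mrpl15, all with bacterial counterparts. Mrpl35 had 26.6, 27.0 and 18.4 normalized reads in WT against 92.5, 90.6 and 49.2 in the knockout, 3.23-fold higher (log2 fold change 1.61, SE 0.35, adjusted p = 0.0141; chromosome 6, 71789981 to 71803953). Mrpl9 rose from 79.9, 58.9 and 62.7 to 122, 119.7 and 111, 1.75-fold, with the closest agreement among the knockout libraries in this group (log2 fold change 0.81, SE 0.20, adjusted p = 0.0226; chromosome 3, 94350625 to 94358437). In Mrpl35 and Mrpl9 every knockout library stood above every WT library, and knockout replicate 3 was the lowest of its group in both. Mrpl21 was at 27.3, 43.0 and 23.8 in WT against 109, 51.8 and 73.8 in the knockout, 2.49-fold higher (log2 fold change 1.27, SE 0.36, adjusted p = 0.0396; chromosome 19, 3332901 to 3342837). Mrpl15 was at 42.2, 35.6 and 43.6 in WT against 61.7, 84.1 and 78.1 in the knockout, 1.84-fold higher (log2 fold change 0.86, SE 0.25, adjusted p = 0.0421; chromosome 1, 4843429 to 4855962). The groups did not overlap in either gene, though in Mrpl21 knockout replicate 2 exceeded WT replicate 2 by little. Scaled by library totals, Mrpl9, Mrpl21 and Mrpl15 all missed the threshold (adjusted p = 0.0627, 0.0692 and 0.101). Mrpl21 overlaps Ighmbp2 by 117 bases on the opposite strand, and Ighmbp2 had 210.4, 196 and 179.9 in WT against 213, 201 and 172 in the knockout.

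In the small subunit, the lower members were Mrps18c and Mrps17, both with bacterial counterparts. Mrps18c fell from 38.3, 39.9 and 34.1 normalized reads to 6.71, 6.47 and 8.68, 5.14-fold (log2 fold change -2.22, SE 0.43, adjusted p = 0.00923; chromosome 5, 100946493 to 100952337). Mrps17 fell from 98.7, 74.9 and 70.9 to 25.5, 24.3 and 55.0, 2.33-fold (log2 fold change -1.29, SE 0.36, adjusted p = 0.0365; chromosome 5, 129792561 to 129799620). The knockout libraries of Mrps18c lay close together, at 4 to 6 reads, whereas knockout replicate 3 of Mrps17 stood well above the other knockout libraries. The higher members were Mrps14, Mrps18a and Mrps22. Mrps14, with a bacterial counterpart, rose from 88.3, 80.4 and 83.8 to 141, 160.1 and 148, 1.78-fold (log2 fold change 0.82, SE 0.16, adjusted p = 0.00980; chromosome 1, 160022785 to 160029740), and both groups were tight. Mrps22, specific to mitochondria and mutated in inherited respiratory chain deficiency, rose from 42.8, 38.0 and 44.3 to 67.1, 90.6 and 68.0, 1.80-fold (log2 fold change 0.82, SE 0.25, adjusted p = 0.0461; chromosome 9, 98470783 to 98483713). The calls of Mrps17 and Mrps22 were the weakest of the small subunit, since upper-quartile scaling ended the first (adjusted p = 0.0577) and TMM scaling the second (adjusted p = 0.0659).

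Mrps18a belongs to a family of 3 related proteins with Mrps18b and Mrps18c, which share a bacterial ancestor. Despite its name, structures of the mammalian ribosome place Mrps18a, and likewise Mrps30, in the large subunit. Mrps18a rose from 78.6, 76.1 and 62.0 to 121, 121 and 158, 1.84-fold (log2 fold change 0.87, SE 0.20, adjusted p = 0.0180; chromosome 17, 46421912 to 46439836), with no overlap between the groups. Mrps18b had 11.0, 12.9 and 13.6 in WT against 2.68, 0 and 11.6 in the knockout, short of the threshold (adjusted p = 0.187). With a library left out it passed in 1 of 6 fits, without its highest knockout library, replicate 3 (adjusted p = 0.0311). Its adjusted p was up to 0.412 in the others. Of the 3 relatives, then, 1 was called higher, 1 was called lower and 1 was not called. Mrps30 had 79.9, 61.4 and 76.3 in WT against 69.7, 110.0 and 104 in the knockout, with overlapping groups (adjusted p = 0.334).

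**Figure D2:**
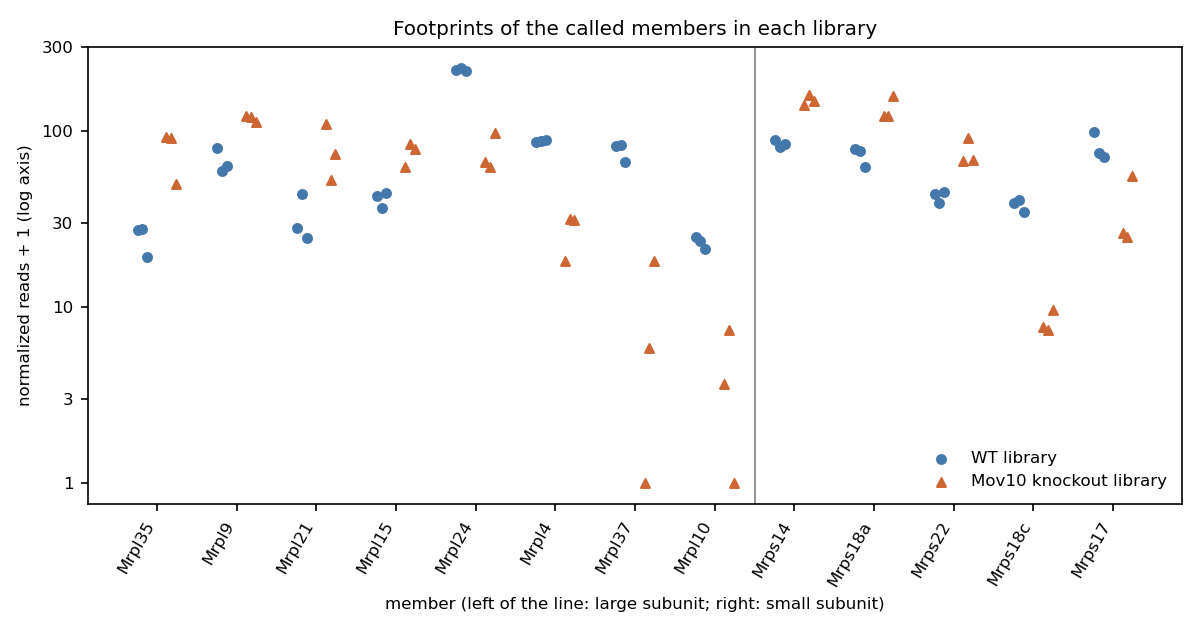
Normalized reads plus 1 (log axis) of the 13 called members in each of the 3 WT (circles) and 3 Mov10 knockout (triangles) libraries. The genotypes do not overlap in any of them, and Mrpl37 and Mrpl10 each have a knockout library at 0, drawn at 1.

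Genes for mitochondrial ribosomal proteins are known for compact promoters with sites for ETS-family factors, NRF1 and YY1, so the promoters of 4 called members are shown to set shared letters beside their opposite changes. They come from RefSeq (GRCm38.p6, a build other than that of the table), span 250 bases before to 50 after the annotated start, and have in capitals the ETS core CCGGAAG or the YY1 core AAGATGGC on either strand. The regions are chr5:100798509-100798808 for Mrps18c (plus strand), chr9:98601630-98601929 for Mrps22 (minus strand), chr17:46110754-46111053 for Mrps18a (plus strand) and chr4:107066817-107067116 for Mrpl37 (minus strand).
Mrps18c: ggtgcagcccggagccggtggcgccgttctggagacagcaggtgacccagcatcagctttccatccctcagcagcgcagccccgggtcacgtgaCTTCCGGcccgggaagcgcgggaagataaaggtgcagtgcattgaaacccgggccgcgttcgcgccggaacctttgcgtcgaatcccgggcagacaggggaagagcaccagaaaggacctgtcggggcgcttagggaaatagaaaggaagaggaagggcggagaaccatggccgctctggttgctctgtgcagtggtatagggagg
Mrps22: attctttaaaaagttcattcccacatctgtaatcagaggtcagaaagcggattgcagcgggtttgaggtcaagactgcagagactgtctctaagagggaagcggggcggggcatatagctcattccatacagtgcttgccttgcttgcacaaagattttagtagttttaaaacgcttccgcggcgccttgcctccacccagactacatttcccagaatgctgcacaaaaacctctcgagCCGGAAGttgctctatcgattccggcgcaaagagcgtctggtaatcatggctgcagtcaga
Mrps18a: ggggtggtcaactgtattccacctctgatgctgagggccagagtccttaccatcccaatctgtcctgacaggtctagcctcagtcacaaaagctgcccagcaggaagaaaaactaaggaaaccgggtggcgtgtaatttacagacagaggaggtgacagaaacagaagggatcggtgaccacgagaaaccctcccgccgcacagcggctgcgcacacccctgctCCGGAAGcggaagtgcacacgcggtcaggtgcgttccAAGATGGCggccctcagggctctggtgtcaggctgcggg
Mrpl37: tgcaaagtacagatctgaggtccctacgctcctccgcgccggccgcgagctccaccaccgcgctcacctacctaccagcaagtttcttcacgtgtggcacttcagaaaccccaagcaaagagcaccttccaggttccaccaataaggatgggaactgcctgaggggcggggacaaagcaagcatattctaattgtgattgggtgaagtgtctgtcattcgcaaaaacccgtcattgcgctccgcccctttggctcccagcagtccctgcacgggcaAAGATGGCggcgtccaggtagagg
The ETS core begins 156 bases before the start in Mrps18c, which was lower, and 11 and 26 bases before it in Mrps22 and Mrps18a, which were higher. The YY1 core begins at base 12 after the start in Mrps18a and at base 27 in Mrpl37, which was lower. These members were picked with their calls known, to show shared letters on both sides, so they do not test the motifs.

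Of the 78 members, 69 matched the promoter table by symbol, with 75 promoters. Mrpl4, Mrpl13, Mrpl15, Mrpl19, Mrpl38, Mrpl54, Mrps28, Mrps34 and Mrps35 were not matched. CCGGAAG was present in 34.7% of the member promoters and in 8.86% of all 32851 promoters of that length. The NRF1 palindrome was in 17.3% against 4.60%, and AAGATGGC in 12 of 75 (16%) against 2.75%. Both strands were searched, and none of these motifs holds the letters of another. At least 1 of the 3 was in 57.3% of member promoters and 14.7% of all. Among members, the ETS core was held by 3 of 6 called higher, 1 of 5 called lower and 22 of 58 not called. For NRF1 these counts were 1 of 6, 0 of 5 and 12 of 58, and for YY1 2 of 6, 1 of 5 and 9 of 58. These are matches of letters, not measured binding.

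The most read members of each subunit included several that were not called. Mrpl28, with a bacterial counterpart, had 184, 173 and 179.9 normalized reads in WT against 236, 84.1 and 72.4 in the knockout. Knockout replicate 1 exceeded every WT library while the other knockout libraries were below them all, and the difference did not pass (adjusted p = 0.273). Without knockout replicate 1, the library that went the other way, Mrpl28 was called lower, at -1.19 on the log2 scale (adjusted p = 0.00307). This was the only 1 of 6 such fits that called it, with an adjusted p of up to 0.552 in the others. Mrpl3, also of bacterial descent, had 119, 111 and 111 in WT against 117, 136 and 113 in the knockout, a difference close to 0 (log2 fold change 0.09, SE 0.16, adjusted p = 0.726). Mrpl39, a mitochondrion-specific protein related to threonyl-tRNA synthetase, had 81.2, 80.4 and 79.7 in WT against 177, 128 and 69.5 in the knockout (adjusted p = 0.279). The WT libraries of Mrpl39 were nearly equal, and the knockout libraries fell on both sides of them. Without knockout replicate 3, the library below WT, Mrpl39 was called higher (adjusted p = 0.0175). It too was called in 1 of 6 such fits, with an adjusted p of up to 0.563 in the others. Leaving out the library that opposes a difference favors a call, so these fits add no support.

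Mrpl2, which sits by the peptidyl transferase centre, had 83.8, 69.3 and 65.4 normalized reads in WT against 141, 125 and 92.6 in the knockout. Mrps15, with a bacterial counterpart, had 70.1, 87.8 and 89.3 in WT against 165, 92.2 and 142 in the knockout. In both genes every knockout library was above every WT library, yet neither passed over all genes (adjusted p = 0.0583 for Mrpl2 and 0.0977 for Mrps15). Upper-quartile scaling and edgeR called both higher, with adjusted p of 0.0280 and 0.0361 for Mrpl2 and of 0.0393 and 0.0474 for Mrps15. Mrps9, another protein of bacterial descent, had 105, 93.9 and 101 in WT against 96.6, 64.7 and 65.1 in the knockout, with knockout replicate 1 inside the WT range (adjusted p = 0.216). Mrps9 was called lower only without that library (adjusted p = 0.0363), in 1 of 6 fits with a library left out. Its adjusted p was up to 0.444 in the others.

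Some members have roles beyond building the subunit. Mrpl12, the stalk protein that also binds the mitochondrial RNA polymerase, had 61.0, 58.3 and 51.1 normalized reads in WT against 28.2, 30.7 and 49.2 in the knockout. All knockout libraries were below WT, but the difference did not pass (adjusted p = 0.157). With a library left out it passed in 1 of 6 fits, without knockout replicate 3, the one nearest WT (adjusted p = 0.0319). The adjusted p was up to 0.388 in the others. Mrpl45, which tethers the ribosome to the inner membrane, had 72.7, 47.3 and 70.2 in WT against 22.8, 53.4 and 127 in the knockout, and Mrpl58, which can release stalled chains, had 39.6, 52.2 and 38.8 in WT against 8.05, 79.3 and 34.7 in the knockout. The knockout libraries of both spread above and below all WT libraries, and no difference could be shown (adjusted p = 0.824 and 0.602).

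By position and descent, the calls fell as follows. Of the 30 large subunit members with a bacterial counterpart 4 were higher and 3 lower, and of the 19 specific to mitochondria 0 were higher (1 at an unadjusted p under 0.05, 1 by edgeR and 1 by DESeq2) and 1, Mrpl37, lower. Among small subunit members, 16 with a counterpart gave 1 higher (Mrps14) and 2 lower (Mrps17 and Mrps18c), and 10 specific to mitochondria gave 1 higher (Mrps22). Mrps18a and Mrps30 were kept apart and Mrps36 was not classed. Mrps18b counted as specific by its place in the subunit, which no bacterial protein fills, although its sequence is related to that of a bacterial protein. Whether these classes differ was not tested. Of 5 stalk proteins only Mrpl10 was called (20.0%). Of 9 proteins of the central protuberance, the crown of the large subunit, limma called 0, while 1 was lower at an unadjusted p under 0.05, 1 by edgeR and 1 by DESeq2, with 8 of 9 values below 0 and a median of -0.81. Their lowest adjusted p was 0.0525, for Mrpl52, at 26.0, 20.9 and 32.0 in WT against 4.02, 4.85 and 13.0 in the knockout. Mrpl52 was called lower by both count tools. With a library left out limma called it in 1 of 6 fits, without knockout replicate 3, its highest knockout library (adjusted p = 0.0127). Its adjusted p was up to 0.237 in the others. Of 7 proteins around the polypeptide exit 1, Mrpl24, was called (14.3%). Another of these, Mrpl22, had 24.0, 14.7 and 19.1 in WT against 36.2, 46.9 and 49.2 in the knockout, above all WT libraries and just short of the threshold (adjusted p = 0.0505), which it passed with upper-quartile scaling (adjusted p = 0.0293) and with both count tools.

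The 65 members not called had log2 fold changes from -2.74 to 1.47 and adjusted p from 0.0505 to 0.979. Of these, 17 had groups that did not overlap. Called members included, the share without overlap was 38.5%, near the 39.8% of all tested genes. In Mrpl22, Mrpl2, Mrpl49, Mrpl16, Mrpl13, Mrpl57 and Mrps15 all knockout libraries were above WT, and in Mrpl52, Mrpl38, Mrpl12, Mrpl18, Mrpl30, Mrpl14, Mrps27, Mrps5, Mrps25 and Mrps7 all were below. Many of the widest differences stood on few reads. In 17 members at least 1 knockout library had no read, among them Mrps5 at 35.1, 33.8 and 39.5 in WT against 18.8, 9.70 and 0 in the knockout, and Mrpl36 at 24.0, 34.4 and 26.6 in WT against 32.2, 0 and 1.45 in the knockout. A library with no read allows up to 3 reads, 4.02 to 4.85 normalized reads in the knockout, counting error only. Only Mrpl53 had no read in some WT library, at 0.649, 0 and 0 in WT against 8.05, 0 and 2.89 in the knockout. Mrps36, now known as a subunit of the oxoglutarate dehydrogenase complex and not of the ribosome, was hardly read, at 3.25, 1.84 and 3.41 in WT against 0, 0 and 10.1 in the knockout.

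Scatter between replicates was wider in the knockout. Counting error was also larger there, at a median of 22 reads per member and library against 54 in WT. The part of depth in the scatter was not tested. The SD was larger in the knockout in 68 of 78 members (87.2%), and in 82.8% of all tested genes. The median SD was 16% of the mean over the members in WT against 45.5% in the knockout. The fit used 1 spread per gene for both genotypes. Without WT replicates 1, 2 and 3 in turn, 4, 2 and 1 members were called (5.1, 2.6 and 1.3%). The shares of all genes called moved the same way, to 8.5, 7.5 and 7.2%. Without knockout replicates 1, 2 and 3 in turn, 20, 15 and 19 members were called (26.0, 19.2 and 24.4%), including 11, 10 and 11 of the 13. Of all genes, 26.8, 26.0 and 26.6% were called in these fits. Besides Mrpl24, every called member fell short of the threshold without at least 1 WT library, Mrpl4 in 1 and the others in 2 or 3 of these fits, and the highest adjusted p among the 13 was 0.177.

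**Figure D3:**
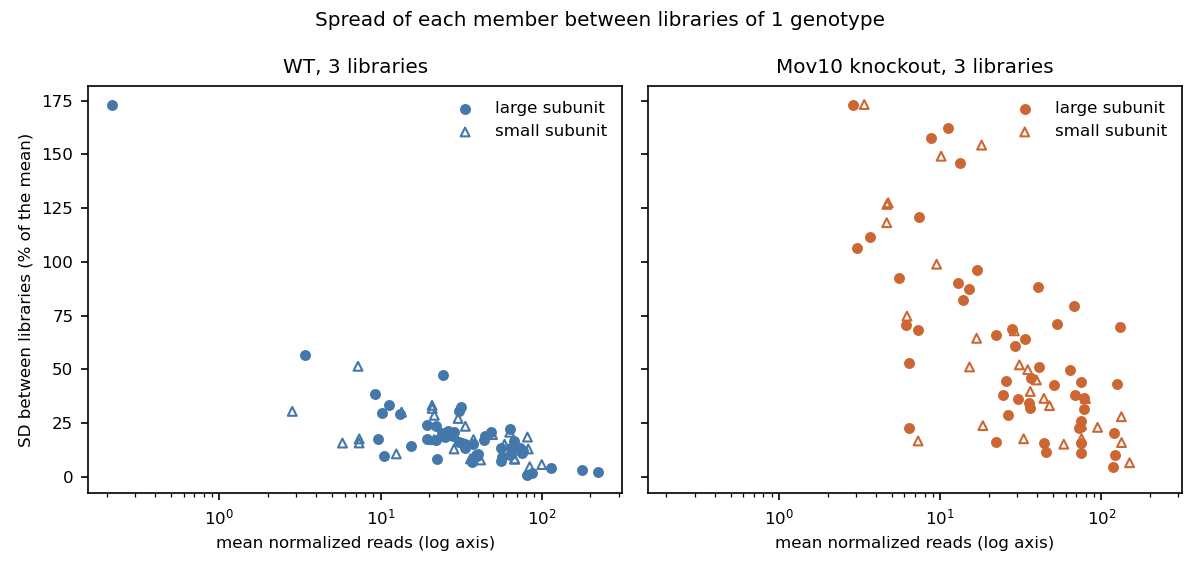
SD between the 3 libraries of a genotype, as % of the mean, against mean normalized reads (log axis) for each member, in WT (left) and the Mov10 knockout (right). Members at a similar mean spread more widely in the knockout, where the median was 45.5% against 16% in WT. A similar mean rests on fewer reads there, since 1 read counts 1.34 to 1.62 against 0.614 to 0.681 in WT. Counting error is therefore larger in the knockout, and its part in the spread was not tested.

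Summed over the 49 large subunit members, footprints made up 0.142 ± 0.00426% (SD, n = 3) of the reads in WT against 0.116 ± 0.00875% (SD, n = 3) in the knockout. The WT libraries ran from 0.138 to 0.146% and the knockout libraries from 0.107 to 0.125%, so the large subunit share was lower in every knockout library, by 1.23-fold between the means. A lower share was not particular to it. Scaled by library totals, the median log2 fold change over all tested genes was -0.39, a median over genes and not a sum. With the authors' size factors the same sum was 2201 ± 86.2 normalized reads in WT against 2106 ± 156 in the knockout, and the groups overlapped. For the 29 small subunit members the share was 0.0765 ± 0.00428% in WT against 0.0708 ± 0.00341% in the knockout, with overlapping libraries. In normalized reads the small subunit sum was 1187 ± 77.8 in WT against 1287 ± 64.2 in the knockout, overlapping too. The ratio of small to large subunit reads, which no scaling touches, was 0.528 to 0.555 in WT against 0.540 to 0.691 in the knockout. Knockout replicate 1 fell inside the WT range and the other knockout libraries above it. Between the genotypes' mean ratios, the knockout was 1.14 times WT, and 1.03 times with Mrps18a and Mrps30 counted as large.

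**Figure D4:**
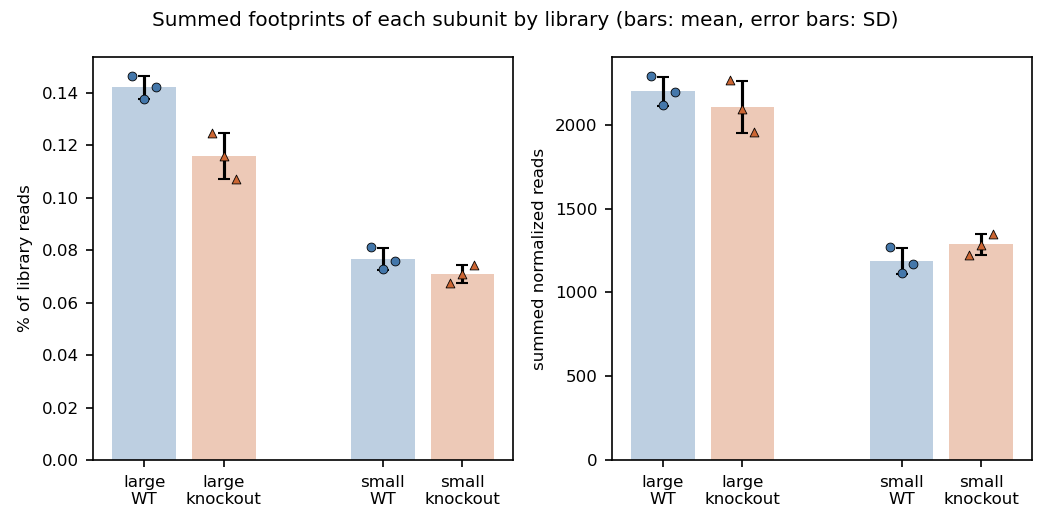
Summed footprints of the large and small subunit members in each library, as % of library reads (left) and as summed normalized reads (right), with bars at the mean of 3 libraries and error bars of 1 SD. The large subunit share is lower in every knockout library on the left, and the groups overlap on the right. Scaled by library totals, the median over all tested genes was lower in the knockout too.

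Levels of different genes were compared per kilobase of the gene length in the table. In WT the members ran from 0.274 to 129.6 normalized reads per kilobase, with a median of 12.4, beside 68.6 for the median of 73 cytosolic ribosomal protein genes. Mrpl28 led at 129.6, before Mrpl24 at 99.1 and Mrpl2 at 62.3 per kilobase. In the knockout the order opened with Mrpl2 at 102 and Mrpl28 at 94.8, and Mrpl24 ranked 13 at 33.1 per kilobase. Of the cytosolic ribosomal protein genes 10 were called higher and 26 lower, 36 of 73 (49.3%) beside 21.2% of all genes. Their median log2 fold change was -0.57. The difference between the families was not tested, and the cytosolic genes had more reads, with a median of 233 reads per WT library against 54.

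The mammalian ribosome of mitochondria also holds proteins under other names, of which 5 were tested. By limma 1 was higher and 0 were lower (20.0% called, beside 21.2% of all genes). At an unadjusted p under 0.05, or by edgeR or DESeq2, 0 were lower. Chchd1, a small subunit protein, had 39.0, 36.8 and 51.8 normalized reads in WT against 177, 256 and 265 in the knockout. That was 5.47-fold higher (log2 fold change 2.42, SE 0.23, adjusted p = 0.000260), more than that of any member called higher, with all knockout libraries far above WT. Dap3 of the small subunit had 96.1, 88.4 and 104 in WT against 93.9, 104 and 72.4 in the knockout, and Ptcd3, an RNA-binding protein of the same subunit, 199, 183 and 198 in WT against 153, 204 and 137 in the knockout. Neither Dap3 nor Ptcd3 separated the genotypes (adjusted p = 0.742 and 0.342). Aurkaip1, also in the small subunit, had 111, 115 and 99.5 in WT against 121, 144 and 174 in the knockout, above every WT library but not past the test (adjusted p = 0.157). Gadd45gip1 of the large subunit had 17.5, 11.7 and 10.9 in WT against 21.5, 0 and 40.5 in the knockout (adjusted p = 0.799). The ribosomal RNA genes mt-Rnr1 and mt-Rnr2 were listed at 0 in all libraries.

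The products of the mitochondrial ribosome are the 13 proteins encoded in mitochondrial DNA. Of 9 of these genes tested, 4 were lower and 1 higher, 55.6% beside 21.2% of all genes. Among the lower genes, mt-Cytb, the cytochrome b of complex III, had 1308, 1123 and 1225 normalized reads in WT against 314, 467 and 553 in the knockout, 2.74-fold lower (log2 fold change -1.49, SE 0.19, adjusted p = 0.00106). mt-Nd2, a complex I subunit, had 169, 141 and 163 in WT against 96.6, 45.3 and 68.0 in the knockout (log2 fold change -1.22, SE 0.27, adjusted p = 0.0159), a call lost when any 1 WT library was left out (highest adjusted p = 0.0897). mt-Nd3, another complex I subunit, fell from 48.7, 49.1 and 55.2 to 1.34, 0 and 0, that is 1, 0 and 0 reads (adjusted p = 0.000844). mt-Co1, a core subunit of cytochrome c oxidase, went from 4027, 3877 and 3831 to 1189.5, 1182 and 1158, 3.32-fold lower (log2 fold change -1.73, SE 0.05, adjusted p = 8.10e-07). In the other direction, mt-Nd5 of complex I rose from 566, 634 and 615 to 921, 1076 and 1265, 1.80-fold (log2 fold change 0.83, SE 0.12, adjusted p = 0.00209). The footprints on the mitochondrial mRNAs thus went both ways but were more often lower, with 6 log2 fold changes below and 3 above 0 and a median of -1.22. mt-Co2, mt-Co3 and mt-Nd4l were listed at 0 in every library, and mt-Atp6 was read in WT replicate 3 alone.

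Factors that work with this ribosome were called in both directions. Of 15 mitochondrial translation factors 2 were higher and 1 lower, 20.0% of those tested and near the 21.2% of all genes. Tufm, the elongation factor that brings tRNA to the ribosome, had 40.3, 24.5 and 35.4 normalized reads in WT against 1.34, 1.62 and 0 in the knockout, 1, 1 and 0 reads (adjusted p = 0.00349). Tsfm, the exchange factor that recharges Tufm, had 57.8, 74.9 and 56.6 in WT against 172, 139 and 101 in the knockout, 2.18-fold higher (log2 fold change 1.09, SE 0.24, adjusted p = 0.0160). This pair of partners was called in opposite directions. Gfm2, a ribosome recycling factor, had 139.6, 114 and 136 in WT against 181, 202 and 237 in the knockout, 1.60-fold higher (log2 fold change 0.67, SE 0.16, adjusted p = 0.0231). Tufm stayed called whichever library was left out, while Tsfm and Gfm2 were lost when any 1 WT library was left out (highest adjusted p = 0.0855 and 0.108).

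Of 30 assembly and rRNA modification factors 1 was higher and 1 lower, 6.67% of those tested beside 21.2% of all genes. Afg3l2, a subunit of the inner membrane protease that processes Mrpl32, rose from 153, 171 and 159 to 240.0, 259 and 237, 1.52-fold (log2 fold change 0.60, SE 0.13, adjusted p = 0.0124). Its substrate Mrpl32 had 22.7, 17.8 and 25.2 in WT against 16.1, 22.6 and 0 in the knockout and was not called (adjusted p = 0.342). C1qbp, a matrix protein needed for mitochondrial translation, fell from 233, 211 and 213 to 81.8, 129 and 119, 1.99-fold (log2 fold change -1.01, SE 0.19, adjusted p = 0.00860). Both calls were lost when any 1 WT library was left out (highest adjusted p = 0.0686 for Afg3l2 and 0.0598 for C1qbp).

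Of 6 genes of mitochondrial transcription and mRNA stability 1 was lower (16.7% beside 21.2% of all genes). None, 0 of them, was higher by limma, at an unadjusted p under 0.05 or by edgeR or DESeq2. Slirp, the partner of Lrpprc in protecting mitochondrial mRNAs, had 7.79, 6.14 and 10.9 normalized reads in WT against no read in any knockout library (adjusted p = 0.00730). The limit of 3 reads in each knockout library, 4.02 to 4.85 normalized reads, lies below each WT value of Slirp, and the size of the difference is not fixed. Lrpprc itself had 525, 468 and 488 in WT against 610.2, 505 and 628 in the knockout, with overlapping groups (adjusted p = 0.180). Polrmt, the mitochondrial RNA polymerase, had 50.6, 52.8 and 51.1 in WT against 26.8, 21.0 and 40.5 in the knockout, below WT in every library but not past the test (adjusted p = 0.110). Tfam, which packages mitochondrial DNA, was at 49.3, 57.7 and 46.3 in WT against 79.1, 38.8 and 56.4 in the knockout. Tfb2m, which opens mitochondrial promoters, was at 20.8, 15.3 and 24.5 in WT against 20.1, 14.6 and 26.0 in the knockout. Tefm, the transcription elongation factor, was at 34.4, 41.1 and 32.0 in WT against 32.2, 24.3 and 31.8 in the knockout. The genotypes overlapped in all 3 genes (adjusted p from 0.581 to 0.990).

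Other genes share sequence with many members. Of the 78 members 33 overlapped another gene with reads, 28 of them a gene on the opposite strand, and of the 13 called members 6 did. Mrpl46 and Mrps11, a large and a small subunit member, lie head to head and overlap by 413 bases. Mrpl46 had 37.7, 28.8 and 29.3 normalized reads in WT against 34.9, 12.9 and 28.9 in the knockout, and Mrps11 9.74, 17.8 and 12.9 in WT against 13.4, 8.09 and 28.9 in the knockout, with neither called (adjusted p = 0.559 and 0.875). The overlapping genes of Mrps18c, Mrps18a, Mrpl9 and Mrps22 had at most 5.19 normalized reads in any library, far below these members' own levels in WT. The 6 processed pseudogenes named after members were listed at 0. The members lay on 17 chromosomes, with at most 11 on the same one, chromosome 11.

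Count-based tests on the recovered reads called more members. The edgeR quasi-likelihood test called 18 of 70 members, 7 large and 4 small members higher and 5 large and 2 small members lower, where it called 29.5% of 10891 genes. It called all 13 members that limma called, each in the same direction. DESeq2 called 16 of 78 members (6 large and 2 small higher, 5 large and 3 small lower) and 22.0% of 15041 genes, and shared 12 of the 13, all but Mrps22, in the same direction.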

How the data were processed

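Footprints of 24 to 36 nt were sequenced in 6 libraries, per the labels' protocols, with GRCm39 as the genome build named by the submitters' processing notes. Aligner, counting tool, annotation and strand setting are not given. The deposited signal values are reads that the authors scaled by a size factor for each library: 99.98% of 107192 values above 0 are whole multiples of their library's step, within 0.05 read. The authors' deposited log2 fold changes and p-values, from a test that is not stated, were not used for calls. Their adjusted p was under 0.05 for 16 members.

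Genes averaging 1 normalized read or more entered a limma 3.58.1 fit (R 4.3.3) on log2(value + 1) with a variance trend, genotype as the only term and Benjamini-Hochberg adjustment over 17114 genes. Camp, Rps29, Igkc, Ssr4 and Rpl27, no members, were left out of the fit because their values are not whole reads in their own library. In each of these genes, 6 of 6 values became whole reads once the WT and knockout steps were swapped. Whether their WT and knockout values had been exchanged was not tested. Rps29 and Rpl27 are therefore not among the 73 cytosolic ribosomal protein genes. Fold values are ratios of mean normalized reads, and log2 fold changes are on the log2(value + 1) scale. The added 1 shrinks differences at low values, while a knockout library at 0 pulls the log2 value down. Mrpl36 was thus at -2.74 but only 2.53-fold lower by its means. Mrps12 was at -0.09 although its knockout mean was 3.11-fold higher. DESeq2 1.42.0 and edgeR 4.0.16 ran on the recovered reads. The limma and edgeR procedures were run on simulated reads with the same spread in both genotypes. The spread here was wider in the knockout, so that run does not check calls under such scatter. Reads carry no molecular identifiers, so the limit of 3 reads for a library at 0 covers counting error only. Tables and plots used Python 3.11.15 with numpy 2.4.6, pandas 2.3.3 and matplotlib 3.10.9.

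The members, lists, tests and named genes were chosen with earlier results of these data known. Named with every library's value are called members (the 8 with the smallest p in each direction and subunit), the 5 most read members of each subunit, Mrpl12, Mrpl45, Mrpl58, Mrps18a and Mrps30, up to 4 called genes per list of genes outside the family, all genes of such lists of 6 or fewer, and Mov10. Cell type markers are given as sums, and classes of members by position as counts. Mrps18b, Mrpl52, Mrpl22, Mrps5, Mrpl36, Mrpl53, Mrps36, Mrpl32, Mrpl46, Mrps11 and mt-Nd2 were added after their values were seen. Alternatives were a replicate block, DESeq2, edgeR, TMM, upper-quartile and library-total scaling, no filter, a mean of at least 50, a pseudocount of 0.1, thinning to equal depth and each library left out. A separate spread per genotype was added after seeing the data. Same-numbered libraries deviated from their group means with correlations of 0.012, 0.013 and -0.0062 and were not treated as pairs.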

Additional observations from a re-analysis of the deposited data

How the results depend on the processing

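No called member changed direction under any alternative run. Of 543 values of 33 named members under the alternatives, 438 kept their direction and side of the threshold, 62 fell short of it, 32 newly passed it and 11 turned sign, all 11 in members that were not called. Why values moved was not tested. Scaling moved the median of all genes by 0.18 (upper quartile) and -0.21 (library totals), and the share of calls that were higher from 48.4% to 62.9% and 30.8%. With TMM that share was 40.9%.

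Large subunit members called higher, 4 in the report, were 7 with edgeR and with upper-quartile scaling, 2 without a filter, 1 with library totals, 1 with thinning and 0 to 5 with a library left out. Those called lower, also 4, were 2 with a mean of at least 50, 2 with a pseudocount of 0.1 and 1 to 7 with a library left out. Small subunit members called higher, 3 in the report, were 0 to 3 with a library left out. Those called lower, 2 in the report, were 1 with upper-quartile scaling, 1 without a filter, 1 with a mean of at least 50 and 0 to 5 with a library left out. Over all genes, 3628 calls became 1239 to 4585 with a library left out. With the replicate block 3245 genes and 13 members were called, 3 large higher, 5 large lower, 2 small higher and 3 small lower, and Mrpl15 and Mrps22 were not (adjusted p = 0.0974 and 0.109, limma). With a separate spread per genotype 14 members were called.

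The large subunit median of -0.41 became -0.11 with DESeq2, -0.077 with edgeR, -0.50 with TMM, -0.22 with upper-quartile scaling, -0.63 with library totals, 0.37 with a mean of at least 50, -0.55 with thinning and -0.46 to -0.28 with a library left out. The small subunit median of -0.11 became 0.23, 0.12, -0.34, 0.28 and -0.31 with DESeq2, edgeR, library totals, a mean of at least 50 and thinning, and -0.30 to 0.024 with a library left out. Knockout over WT shares of reads stayed at 0.785 to 0.847 for the large and 0.902 to 0.954 for the small subunit with a library left out, and the ratio of small to large subunit reads at 1.07 to 1.21. With Mrps18a and Mrps30 counted as large these were 0.849, 0.867 and 1.03, and without the most read member of each subunit 0.833, 0.880 and 1.06.

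Some values changed sign, all in genes that were not called. Not all were near 0 in the main fit, where Mrps36 was at -0.75, Mrpl58 at -0.58 and Gadd45gip1 at -0.53. With library totals Mrpl3 was -0.14, Tfam -0.10, Mrps11 -0.056 and Lrpprc -0.0017, and with thinning Mrpl3 was -0.037 and Tfam -0.017. With upper-quartile scaling Dap3 was 0.086 and Tfb2m 0.18. With DESeq2 Mrps36, Gadd45gip1, Mrpl45 and Tfb2m were 0.26, 0.63, 0.10 and 0.0071, and with edgeR Gadd45gip1, Mrpl45 and Tfb2m were 0.65, 0.11 and 0.027. With a library left out, Dap3 ran from -0.22 to 0.038, Gadd45gip1 from -1.57 to 1.12, Mrpl45 from -0.81 to 0.40, Mrpl46 from -0.68 to 0.0032, Mrps11 from -0.30 to 0.56, Mrpl58 from -1.30 to 0.28, Tfam from -0.12 to 0.39 and Tfb2m from -0.20 to 0.20. At this depth 17 members had no read in some knockout library.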
